A study of Mus musculus with 4 samples.

Results

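The genes described here are 39 genes of DNA replication and mitosis, taken by gene symbol from a written list and split into 17 replication and 22 mitosis genes. Of these, 35 were on named spots of the array, 15 for replication and 20 for mitosis, among 14386 genes with a named spot. Mcm7, Cdt1, Ccnb1 and Cdc20 were on no named spot and have no ratio here, but their promoters are counted below. The cells were of CGR8, a mouse embryonic stem cell line, left to form embryoid bodies, cell aggregates that differentiate when grown in hanging drops. RNA of embryoid bodies at day 3 (2 arrays) or day 10 (2 arrays) was hybridised together with RNA of undifferentiated CGR8 cells at day 0, and every array therefore carried both states. The labels name no other allele, agent or treatment, and do not say how many bodies or cultures were pooled. The second array of each day is labelled a technical replicate, so each day is 1 RNA pair, the ± values are SDs between 2 technical arrays, and no p-value can be given. The numerator of the ratio is not stated in the sources used here. Signs are kept as deposited, so a gene on the positive or the negative side may be higher or lower than at day 0.

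DNA replication starts from origins that are licensed in G1, when the origin recognition complex, Cdc6 and Cdt1 load the Mcm helicase. S phase follows once cyclin E with its kinase partner is active and deoxynucleotides are supplied, and mitosis is driven by Cdk1 with cyclins A and B, by Polo-like and Aurora kinases, and by the spindle machinery. In mammals, E2F factors control many replication genes through their promoters. Many mitotic genes carry instead a pair of promoter elements, the CCAAT box and the cell cycle genes homology region (CHR). Mouse embryonic stem cells are known for rapid cycling with a short G1, and cell cycles lengthen as they differentiate.

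At day 3, none of the 33 members measured on both arrays was called, which means at or beyond 2-fold (1 on the log2 scale) on both arrays on the same side. Of all 13707 genes measured at day 3, 2.8% were called (1.77% positive, 1.03% negative). None of the members was beyond 2-fold with opposite signs, as 0.744% of all genes were. At day 10, 3 of 31 measured members were called, against 3.54% of 13199 genes (2.15% positive, 1.39% negative). These were Cdk1 and Cenpf on the positive side and Tk1 on the negative side, so 2 of 19 mitosis genes and 1 of 12 replication genes passed. With counts this small, the shares were not read as a difference from all genes. In such bulk RNA, fewer cycling cells and less RNA of a gene per cell cannot be told apart.

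The list as a whole lay close to 0 at both days. Replication genes had a median log2 ratio of 0.019 at day 3 and 0.065 at day 10, and mitosis genes 0.061 and 0.19. The medians of all genes were 0.0052 and -0.010. These list medians moved with the array: on the separate day 10 arrays they were -0.16 and -0.22 for replication genes, both below 0, and 0.49 and -0.076 for mitosis genes. On the day 3 arrays they were 0.042 and 0.15 for replication genes and -0.091 and 0.19 for mitosis genes. At day 3, 28 of 33 members had a mean within 0.5 of 0, or 84.8%, where 66.4% of all genes did, and at day 10 it was 19 of 31, or 61.3%, against 60.2%. The sign differed between the technical arrays for 15 of 33 members at day 3 and 11 of 31 at day 10, or 45.5% and 35.5%, against 35.3% and 39.2% of all genes.

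**Figure D1:**
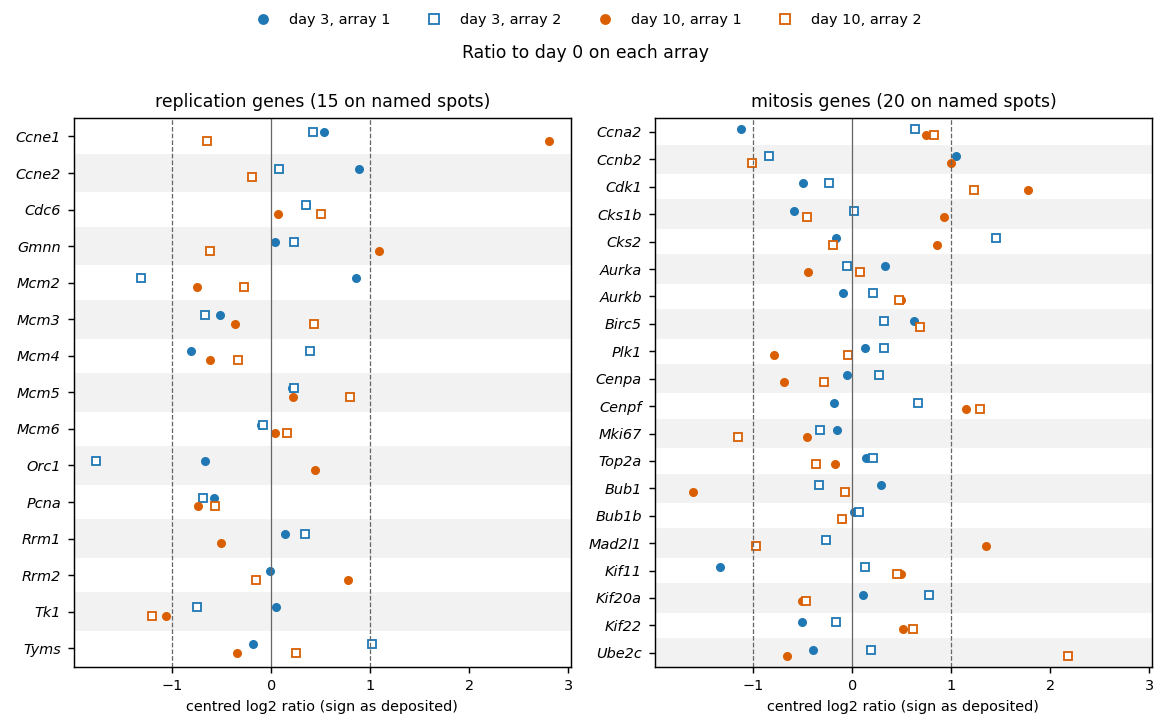
Centred log2 ratio to day 0 (x axis, sign as deposited) of each of the 35 members on named spots, 1 point per array, with blue for day 3, orange for day 10, filled circles for array 1 and open squares for array 2; dashed lines mark 2-fold. Most points lie between the lines, and both day 10 points lie beyond the same line for Cdk1, Cenpf and Tk1.

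Cdk1 encodes the kinase whose activity starts mitosis. Its log2 ratio was -0.50 and -0.23 at day 3, and 1.77 and 1.23 at day 10. Both day 3 arrays thus lay on the negative side and both day 10 arrays on the positive side. Of 12654 genes, 14.0% had the arrays of the 2 days on opposite sides of 0, so no weight is put on it. The day 10 mean stood for a 2.83-fold ratio, with an SD of 0.38 between arrays on the log2 scale. It rests on a different spot on each array: one spot had 1.77 on array 1 and no value on array 2, and the other had no value on array 1 and 1.23 on array 2. On day 3 array 1, those spots read 0.58 and -1.59. Cdk1 was also dim, at the 21.3 percentile of recovered brightness, a lower bound on signal drawn from the whole numbers behind each ratio.

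Cenpf encodes a large protein of the kinetochore and the nuclear matrix that peaks in G2 and mitosis. It read -0.19 and 0.66 at day 3, and 1.15 and 1.29 at day 10. The day 10 mean was 1.22 ± 0.10, a 2.33-fold ratio, and the spot with values on both day 10 arrays read 1.15 and 1.08. Its brightness was at the 73.0 percentile. The day 3 value of 0.66 averages spots of 1.69 and -0.37.

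Tk1 encodes the cytosolic thymidine kinase, which salvages thymidine for DNA synthesis and is made in S phase. It read 0.05 and -0.75 at day 3, and -1.06 and -1.21 at day 10. The day 10 mean was -1.13 ± 0.10, a 2.19-fold ratio on the negative side. Both spots had values on both day 10 arrays: the first -0.99 and -0.97, the second -1.14 and -1.44. The mean is close to the limit, and scaling the arrays to a common spread (-1.06) or removing each array's brightness trend (-1.09) left 1 array short of it.

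**Figure D2:**
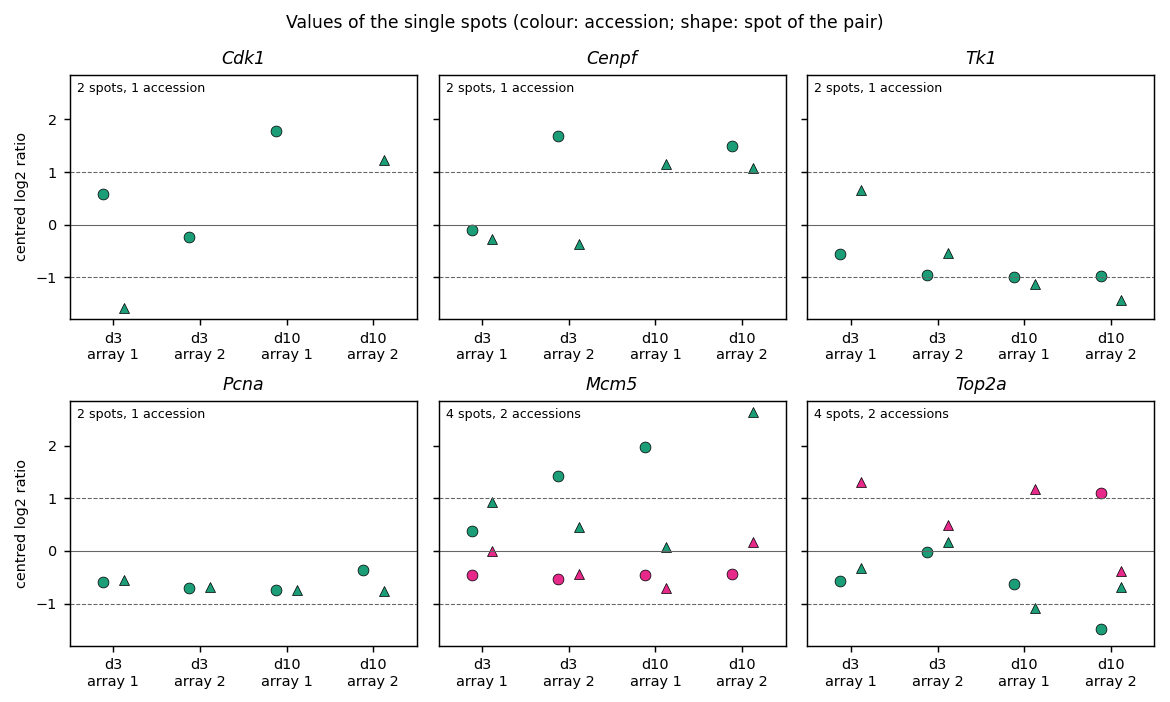
Centred log2 ratio (y axis) of each single spot of Cdk1, Cenpf, Tk1, Pcna, Mcm5 and Top2a on the 4 arrays (x axis; d3 and d10 are the days), with the colour for the accession and the shape for the spot of a pair. The day 10 values of Cdk1 come from different spots, the Pcna spots lie together on every array, and for Mcm5 and Top2a the accessions lie apart.

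The promoters of the called genes are shown with that of Cdc6, a replication gene with an E2F-type element whose ratios were close to each other at day 3. Capitals mark 3 searched elements: the CHR (TTTGAA), the CCAAT box (CCAAT) and E2F-type letters, which are TTCCCGC, its variant TTCGCGC, the variant TTGCCGC and the variant TTGGCGC. Each was searched on both strands, so that ATTGG, for example, is a reverse match of the CCAAT box. The sequences are RefSeq's on build GRCm38.p6 and run 5′ to 3′ on the gene's strand, from 250 bases before the annotated start to 50 after it. The windows are chr10:69352863-69353162 (minus strand) for Cdk1, chr1:189688037-189688336 (minus) for Cenpf, chr11:117825965-117826264 (minus) for Tk1 and chr11:98907901-98908200 (plus) for Cdc6.
Cdk1: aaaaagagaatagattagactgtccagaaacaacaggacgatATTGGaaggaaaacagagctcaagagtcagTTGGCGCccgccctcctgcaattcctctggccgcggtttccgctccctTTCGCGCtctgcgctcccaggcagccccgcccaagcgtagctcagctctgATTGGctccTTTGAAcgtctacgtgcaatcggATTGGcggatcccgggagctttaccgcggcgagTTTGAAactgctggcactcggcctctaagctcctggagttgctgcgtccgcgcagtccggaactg
Cenpf: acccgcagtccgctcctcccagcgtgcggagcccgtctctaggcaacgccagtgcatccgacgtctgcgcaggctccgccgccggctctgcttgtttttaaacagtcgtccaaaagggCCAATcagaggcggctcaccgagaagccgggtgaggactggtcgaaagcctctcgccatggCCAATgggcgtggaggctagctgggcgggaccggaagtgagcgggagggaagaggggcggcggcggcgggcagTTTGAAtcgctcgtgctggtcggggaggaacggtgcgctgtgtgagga
Tk1: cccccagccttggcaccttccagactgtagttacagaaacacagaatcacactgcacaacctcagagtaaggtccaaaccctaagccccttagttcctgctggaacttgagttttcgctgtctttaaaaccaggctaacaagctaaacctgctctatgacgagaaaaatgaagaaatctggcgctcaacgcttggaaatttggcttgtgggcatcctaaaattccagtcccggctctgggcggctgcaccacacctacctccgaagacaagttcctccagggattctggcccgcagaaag
Cdc6: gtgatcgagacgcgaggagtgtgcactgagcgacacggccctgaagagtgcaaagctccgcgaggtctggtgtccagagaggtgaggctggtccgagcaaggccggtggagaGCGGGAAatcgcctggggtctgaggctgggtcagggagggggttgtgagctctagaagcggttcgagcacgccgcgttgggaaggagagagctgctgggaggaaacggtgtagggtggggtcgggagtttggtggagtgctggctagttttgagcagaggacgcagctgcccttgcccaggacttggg
The Cdk1 window held 2 CHR, 3 CCAAT and 2 E2F-type matches. That of Cenpf held 1 CHR and 2 CCAAT matches, that of Cdc6 held 1 E2F-type match, and none of these letters was in the Tk1 window. A match is a description of letters and not a site.

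Replication and mitosis genes differed in these promoter letters, whatever their ratios. The promoter table held 34 windows for 33 of the 39 members. It gave none for Aurkb, Mcm4, Gmnn, Ccna2, Ccne2 and Kif20a. The windows include those of Mcm7, Cdt1, Ccnb1 and Cdc20, which had no ratio. Mcm7 gave the additional window and so counts more than once in the replication shares. Among mitosis genes, 14 of 19 windows held a CHR, or 73.7%, against 1 of 15 replication windows (6.67%) and 17.9% of all 32851 windows. E2F-type letters were in 10 of 15 replication windows, or 66.7%, against 3 of 19 mitosis windows (15.8%) and 9.57% of all. The CCAAT box was in 17 of 19 mitosis windows (89.5%), 10 of 15 replication windows (66.7%) and 37.4% of all. All 14 mitosis windows with a CHR also held a CCAAT box. Both elements were thus in 14 of 19 mitosis windows (73.7%), 1 of 15 replication windows (6.67%) and 6.95% of all windows. A CCAAT match on the reverse strand can share letters with an E2F-type match, as happened in 2 member windows. The members with both the CHR and the CCAAT box include Cdk1 and Cenpf but also Top2a, Bub1b, Aurka and Plk1, which were not called.

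Among the licensing genes, 8 were measured at day 3 and 7 at day 10, and none was called. Orc1, the largest subunit of the origin recognition complex, had the lowest member mean at day 3, -1.22 ± 0.78, from arrays of -0.67 and -1.77. Its spots lay far apart: the first read -2.39 and -3.31 and the second 1.05 and -0.23. Orc1 was dim (percentile 5.41) and had a value on 1 day 10 array, 0.44. The mean therefore stands on spots of opposite sign on array 1.

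Cdc6, the loader of the helicase, read 0.35 and 0.35 at day 3 and 0.07 and 0.50 at day 10, positive on all 4 arrays. Gmnn encodes geminin, the inhibitor of Cdt1, and read 0.04 and 0.23 at day 3 but 1.08 and -0.62 at day 10. The day 10 arrays thus disagreed on its side.

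The Mcm genes encode subunits of the replicative helicase. Mcm6, the brightest of those measured (percentile 92.8), lay near 0 throughout, with -0.11 and -0.09 at day 3 and 0.04 and 0.16 at day 10. Mcm3 read -0.52 and -0.68 at day 3 and -0.36 and 0.43 at day 10. Mcm2 changed side between the day 3 arrays, with 0.85 and -1.32, and read -0.75 and -0.28 at day 10. Mcm4, the dimmest at percentile 1.72, read -0.81 and 0.39 at day 3 and -0.62 and -0.33 at day 10. Each of these Mcm genes had a negative mean at day 3, from -0.60 for Mcm3 to -0.10 for Mcm6. The day 3 arrays of Mcm2 and Mcm4 lay on both sides of 0, so their side is not settled.

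Mcm5 was measured through different accessions, which disagreed on every array. The spots of D26090 averaged 0.66, 0.94, 1.02 and 2.64 on the day 3 arrays and then the day 10 arrays, and those of NM_008566 averaged -0.23, -0.48, -0.58 and -0.13. The gene mean of 0.22 ± 0.01 at day 3 and 0.51 ± 0.40 at day 10 joins these opposite sides. The small SD at day 3 thus does not show that the spots agreed.

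Pcna encodes the sliding clamp of the replication fork and was among the brightest members, at percentile 99.5. It read -0.58 and -0.69 at day 3 and -0.74 and -0.57 at day 10. All 4 arrays lay on the negative side within a narrow band, and every one of its spots did too. The means were -0.64 ± 0.08 and -0.65 ± 0.12, or 1.55-fold and 1.57-fold, short of the limit.

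Of the genes of deoxynucleotide supply, Tk1 was called at day 10, as above. Tyms, thymidylate synthase, read -0.19 and 1.02 at day 3 and -0.35 and 0.25 at day 10, on both sides each time. Rrm1, the large subunit of ribonucleotide reductase, read 0.14 and 0.34 at day 3 and -0.51 on the day 10 array that gave a value. Rrm2, its small subunit, read -0.02 on the day 3 array that gave a value, and 0.77 and -0.15 at day 10. The day 10 values of Rrm2 come from different spots. None of these 3 genes repeated a side at day 10 on arrays that could be compared.

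The E cyclins, which activate Cdk2 for entry into S phase, had the highest replication means at day 3. Ccne1 read 0.54 and 0.43, a mean of 0.48 ± 0.08, and Ccne2 0.88 and 0.08, a mean of 0.48 ± 0.57. At day 10 Ccne1 read 2.80 and -0.65, so that its mean of 1.08 ± 2.44, the highest of the replication genes, came from array 1. Ccne2 read -0.20 on 1 array.

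**Figure D3:**
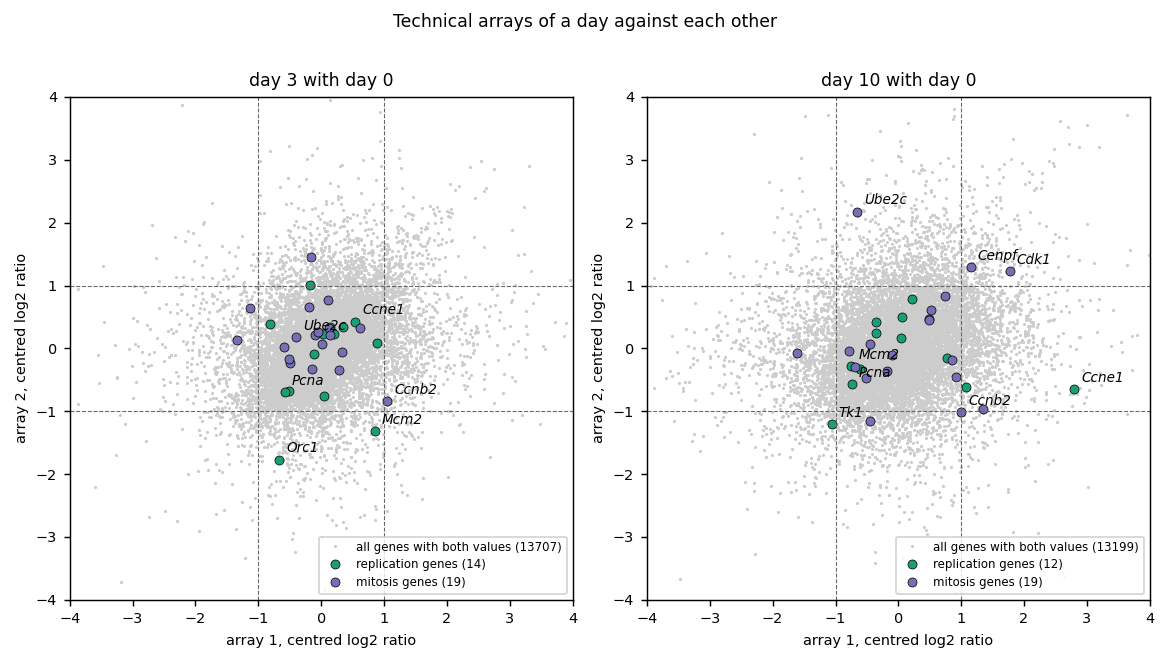
Centred log2 ratio on array 1 (x axis) against array 2 (y axis) of the same day, with all genes in grey, replication genes in green and mitosis genes in purple; dashed lines mark 2-fold. The axes stop at 4, which leaves out 20 genes at day 3 and 21 at day 10; Cenpf and Cdk1 lie in the upper right and Tk1 in the lower left corner region at day 10, while Ccne1, Ccnb2 and Ube2c lie off the diagonal.

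Cdk1 acts with cyclins and small Cks subunits, and its partners did not pass the limit with it. Ccna2, cyclin A2, read 0.75 and 0.83 at day 10, a mean of 0.79 ± 0.06, on the side of Cdk1. The reading of 0.75 averages spots of -0.36 and 1.85, so the small SD does not show that its spots agreed. At day 3 it read -1.13 and 0.64. Ccnb2, a B-type cyclin, read 1.05 and -0.84 at day 3 and 1.002 and -1.01 at day 10, which made it the only member beyond 2-fold with opposite signs at day 10. Such opposite readings were found in 1.48% of all genes. The day 10 readings of Ccnb2 come from different spots, so no spot of it was read on both day 10 arrays. Its day 3 reading of 1.05 averages spots of -0.31 and 2.41.

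The Cks genes also differed between arrays. Cks2 had the highest mitosis mean at day 3, 0.65 ± 1.14, from -0.16 and 1.45, and read 0.85 and -0.19 at day 10. Cks1b read -0.59 and 0.02 at day 3 and 0.92 and -0.46 at day 10. It was measured through different accessions, which lay on opposite sides at day 3. The spots of 1 averaged -1.82 and -0.31, and those of the other 0.03 and 0.34. The day 10 reading of 0.92 rests on 1 spot, and that of -0.46 on 4. Both genes had an SD above the size of the mean at each day.

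The mitotic kinases and the passenger protein survivin lay on the positive side at day 3 by their means, from 0.06 to 0.48, with 4 of 4 measured and none called. Birc5, which encodes survivin, read 0.63 and 0.32 at day 3, a mean of 0.48 ± 0.21, and 0.68 on 1 day 10 array. The reading of 0.32 averages spots of 1.16 and -0.51. Plk1, Polo-like kinase 1, read 0.13 and 0.32 at day 3 and -0.79 and -0.04 at day 10, where the value of -0.04 averages spots of 0.72 and -0.81. Aurkb, the kinase of the passenger complex, read -0.09 and 0.21 at day 3 and 0.49 and 0.47 at day 10. Aurka, the kinase of the spindle poles, read 0.33 and -0.06 at day 3 and -0.45 and 0.08 at day 10. Its spots read -0.28 and 0.95 on day 3 array 1, and 0.23 and -0.34 on day 3 array 2. On day 10 array 2 they read -0.57 and 0.72. The day 10 arrays of Aurkb were close to each other and on the positive side, while those of Aurka lay on both sides.

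Genes of the spindle checkpoint, which holds anaphase until chromosomes are attached, were near 0 or uneven. Bub1b read 0.01 and 0.06 at day 3 and -0.11 and -0.10 at day 10. Its spots on day 10 array 2 lay on opposite sides, at 0.12 and -0.33. Bub1 had the lowest mitosis mean at day 10, -0.84 ± 1.08, from -1.61 and -0.08, and read 0.29 and -0.34 at day 3. Mad2l1 read -0.26 on 1 day 3 array, and 1.35 and -0.97 at day 10. These day 10 values come from different spots. Of the partners of the anaphase-promoting complex, Ube2c, its ubiquitin-conjugating enzyme, read -0.40 and 0.19 at day 3 and -0.66 and 2.18 at day 10. The reading of 2.18 stood on 1 spot, which read 0.57 on array 1. The array 1 reading of -0.66 averages that 0.57 with -1.89 in the other spot, which had no value on array 2.

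Besides Cenpf, the centromere and chromosome proteins had negative means at day 10, with 3 of 4 below 0. Mki67, the proliferation marker Ki-67, read -0.15 and -0.33 at day 3 and -0.46 and -1.16 at day 10, negative on all 4 arrays. Its day 10 mean was -0.81 ± 0.50, the lowest mitosis mean after Bub1, and its brightness was at percentile 82.5. Cenpa, the histone variant of centromeres, read -0.05 and 0.27 at day 3 and -0.69 and -0.29 at day 10. Its day 10 values come from different spots.

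Top2a, DNA topoisomerase II alpha, read 0.14 and 0.21 at day 3 and -0.18 and -0.36 at day 10. Those narrow values average accessions on opposite sides. The spots of U01919 averaged 1.31, 0.49, 1.18 and 0.36, and those of NM_011623 averaged -0.45, 0.08, -0.86 and -1.09. The accessions agreed in sign on day 3 array 2 alone.

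The mitotic kinesins move spindle poles and chromosomes. Kif22 read -0.51 and -0.16 at day 3 and 0.52 and 0.61 at day 10, and each of its spots was negative at day 3 and positive at day 10. Kif11, the motor that separates spindle poles, had the lowest mitosis mean at day 3, -0.60 ± 1.04, from -1.34 and 0.13, and read 0.49 and 0.45 at day 10. Kif20a, a motor of cytokinesis, read 0.11 and 0.78 at day 3 and -0.51 and -0.47 at day 10. At day 10 the array means of each kinesin were within 0.10 of each other, although Kif20a read -0.06 and -1.56 in its first spot and -0.97 and 0.61 in its second.

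Dim members varied more between technical arrays than bright ones. Among the 9 members in the brightest 25% of genes, the median difference between arrays was 0.17 at day 3 and 0.15 at day 10, and none was called. They are Mcm6, Pcna, Rrm1, Cdc6, Aurka, Aurkb, Mki67, Bub1b and Kif22, with means from -0.64 to 0.35 at day 3 and from -0.81 to 0.56 at day 10. Among the 12 in the dimmest 25%, which include Cdk1, the median difference was 1.10 at day 3 and 0.54 at day 10. Rrm1 counts as bright because its values are not ratios of small whole numbers. Members had 76 spots, of which 67 and 66 carried a value at day 3 and 52 and 63 at day 10.

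Day 10 was set against day 3 through the day 0 RNA, on the assumption, not stated by the labels, that it was the same on the 4 arrays. Of 29 members with values on 4 arrays, 1 was called, with all 4 differences at or beyond 1 on the same side, against 3.54% of 12654 genes (1.82% positive, 1.72% negative). The called member was Cdk1, whose day 10 minus day 3 differences ran from 1.46 to 2.27, with a mean of 1.87 ± 0.43. Another 4 of the 29 had differences beyond the limit of opposite signs, as 6.11% of all genes did. The next largest means were 1.08 ± 1.04 for Kif11, 1.03 ± 1.25 for Ccna2 and 0.98 ± 0.61 for Cenpf, each with an array pair short of the limit. Kif22 differed by 0.90 ± 0.26, with every pair between 0.68 and 1.12. On the other side, Kif20a differed by -0.94 ± 0.47, Bub1 by -0.82 ± 1.17 and Tk1 by -0.78 ± 0.57. The median difference was -0.019 for replication genes and -0.13 for mitosis genes, beside -0.013 for all genes.

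Other genes of the same pathways were described from wider lists. Of 48 further replication genes, 39 were measured at day 3 and 1 was called, Pola2, a subunit of the DNA polymerase alpha-primase complex, at -2.42 and -1.002. At day 10, 1 of 43 was called, Pold1, the catalytic subunit of DNA polymerase delta, at 1.93 and 1.32. Both genes were dim, at percentiles 16.1 for Pola2 and 11.7 for Pold1. The values of -2.42 and 1.93 each rest on 1 spot. Between the days none of 39 was called. The shares of 2.56% and 2.33% were near those of all genes. The list medians were -0.057 at day 3 and -0.017 at day 10.

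Of 74 further mitosis genes, 56 were measured at day 3 and 5 were called, or 8.93%, against 2.8% of all genes. Of these, 4 lay on the negative side, where 1.03% of all genes were. The counts are small, and the share was not read as a difference from all genes. Kif20b, a kinesin, read -3.13 and -1.20, and Racgap1, part of the centralspindlin complex of cytokinesis, -1.35 and -2.88. Zwilch, a kinetochore protein, read -1.46 and -1.37, and Nuf2, a subunit of the Ndc80 complex that holds microtubules, -1.63 and -1.08. The fifth, Ncapd3, a condensin II subunit, lies outside the rule for named genes and was added with its value known; it read 1.01 and 1.66 on the positive side. Nuf2 was bright, at percentile 87.9, and the others ranged from 3.12 for Ncapd3 to 54.9 for Zwilch. The value of -3.13 for Kif20b, and each value of Racgap1 and Ncapd3, rests on 1 spot. The median of the list was 0.041, so most of it did not follow these genes.

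None of 49 further mitosis genes was called at day 10, where 3.54% of all genes were. Between the days 3 of 48 were, or 6.25%, against 3.54% of all genes. With counts this small, the shares were not read as a difference from all genes. Cdca8, borealin of the passenger complex, differed by -1.91 ± 0.84 and Fbxo5, the Emi1 inhibitor of the anaphase-promoting complex, by -1.48 ± 0.30, while Racgap1 differed by 2.13 ± 1.08. Cdca8 read 1.65 and 0.47 at day 3 and -0.87 and -0.82 at day 10. Fbxo5 read 0.83 and 0.79 at day 3 and -0.45 and -0.88 at day 10. Neither passed the limit on both arrays of a single day.

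Of 28 genes of G1 and E2F control, 21 were measured at each day. At day 10, 3 were called, or 14.3%, against 3.54% of all genes. They lay on the positive side, where 2.15% of all genes were. With so few genes, the share was not read as a difference from all genes. Ccnh, a cyclin of the kinase that activates other cyclin-dependent kinases, read 1.41 and 2.59, E2f5 2.03 and 1.05, and Skp2, which targets the p27 inhibitor for destruction, 1.32 and 1.02. All 3 lay below the median of brightness, at percentiles 39.2, 21.1 and 2.21. The value of 2.59 for Ccnh and each value of Skp2 rest on 1 spot. At day 3, Rb1, the retinoblastoma protein gene, was called at 1.88 and 1.43 (percentile 4.09), each from 1 spot. That was 4.76% of the genes measured, against 2.8% of all genes. Ccnh was also called between the days, at 1.93 ± 0.91. It was the only 1 of 18 genes, or 5.56%, against 3.54% of all genes. The median of this list was -0.016 at day 3 and 0.38 at day 10.

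**Figure D4:**
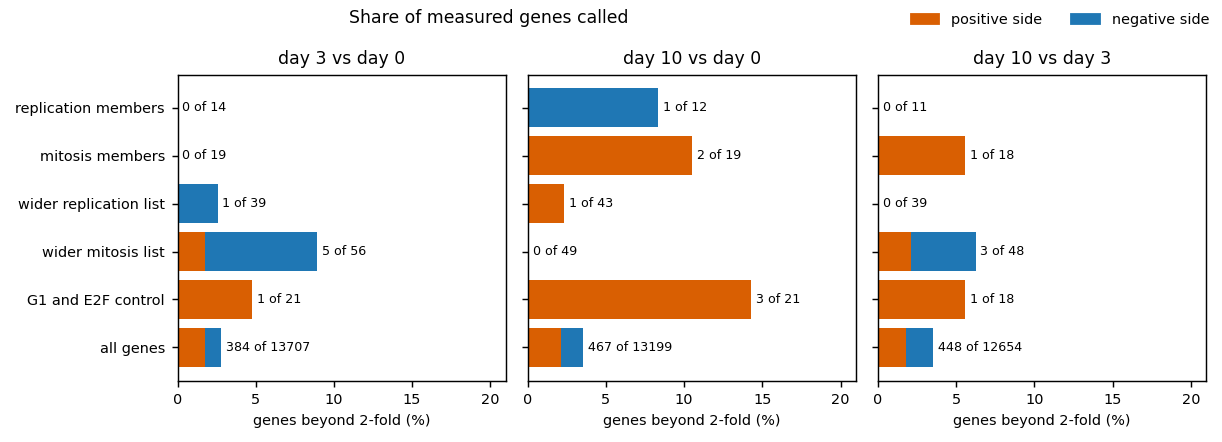
Percentage of measured genes called beyond 2-fold (x axis, from 0) for the members, the wider lists and all genes in each comparison, with orange for the positive and blue for the negative side and the counts beside the bars. The bars stand for 0 to 5 genes in every list.

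Each array had 46128 spots, of which between 37471 and 41386 carried a ratio. The number of arrays, 2 for each day, limits the precision. In the stem cell marker list, 11 of 14 measured genes had a mean below 0 at day 3, as 6784 of all 13707 genes did, and 7 of 13 at day 10. The only one called at day 3 was Dppa5a, at -2.74 and -2.69. That was 7.14% of the 14 genes, against 2.8% of all genes. None was called at day 10, where 3.54% of all genes were and Dppa5a read 0.41 and -2.85. Pou5f1 was not called, at -0.79 and -1.002 at day 3. In this list 3 means at day 3 and 6 at day 10 lay above 0. Fgf4 read -0.48 and -0.22 at day 3 and 1.51 and 0.99 at day 10. It was called between the days, on the positive side, at 1.60 ± 0.41. That was 1 of 13 genes of the list, or 7.69%, against 3.54% of all genes. Of 20 markers of embryoid body lineages at day 3, 1 was called, or 5%, against 2.8% of all genes. It was the early mesoderm gene Mesp1 at 2.04 and 1.89, where 1.89 rests on 1 spot. None of 20 was called at day 10. Single calls in these marker lists were not read as a difference from all genes. None of 8 fibroblast markers was called at day 3 or day 10. Their means ran from -0.53 to 0.82 at day 3 and from -0.88 to 0.51 at day 10. A ratio gives no level, so these values do not show which markers were present.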

How the data were processed

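Total RNA of embryoid bodies at each day and of day 0 cells was measured on 4 spotted arrays with 2 channels. The authors deposited a single number for every spot and array, and from its values this is a log2 ratio between channels. The scanner, software, background treatment, dyes and numerator are not stated in the sources used here. Medians of the deposited columns lay between -0.042 and -0.013.

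Spots were named through the platform's annotation, 32544 with 1 gene symbol, 588 with several (not used) and 12996 without a row, and symbols were looked up by Entrez ID in RefSeq's gene table (0 changed). Control spots (480, of accessions spotted 96 times each) were left out. Each array was centred on its median, and a gene's value is the mean of its spots. No test was run, because each day is 1 RNA pair. Genes were called by a limit of 2-fold on both arrays. The members, lists and rules were chosen with earlier results of these data known.

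All members were named. Called members, members beyond the limit on opposite sides, and the highest and lowest means per day have each array's value, and of wider lists at most the 4 called genes farthest from 0 were named. Replicate numbers follow accession order. The steps were tested on simulated data. Alternatives covered centring, spread, the limit, the spots used, missing values, brightness and each array left out. Calculations used Python 3.11.15, numpy 2.4.6, pandas 2.3.3 and matplotlib 3.10.9.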

Additional observations from a re-analysis of the deposited data

Results flagged for a closer look

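In 7 of the 29 members with values on 4 arrays, both day 3 arrays lay on one side of 0 and both day 10 arrays on the other, or 24.1%, where 1766 of 12654 genes, or 14.0%, did the same. The shares were not tested against each other. The difference between the days was not tested in any of these members. The day 10 mean minus the day 3 mean was 1.87 for Cdk1, 0.90 for Kif22 and 0.20 for Mcm6 (log2), with day 10 on the positive side. It was -0.94 for Kif20a, -0.64 for Plk1, -0.45 for Top2a and -0.14 for Bub1b, with day 10 on the negative side. Among the genes named from the wider lists, the same held for Cdca8 (-1.91) and Fbxo5 (-1.48). The day 10 values of Kif20a, Plk1, Top2a and Bub1b each include at least 1 spot reading on the positive side. At day 3, Top2a and Bub1b also had spots on the negative side. The spots of Cdk1 on day 3 array 1 read 0.58 and -1.59, and a spot of Mcm6 read -0.005 on day 10 array 1. Of these members, Kif22 alone had every spot on the side of its gene value. Of the 7 members, Cdk1 alone was called between the days.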

How the results depend on the processing

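The depth behind these values is unknown, and technical arrays limit what can be seen. No paired analysis was possible because the labels give no replicate numbers that pair arrays across days. No called member changed sides under any alternative that gave it a value. Cdk1 had no value where only spots measured on both day 10 arrays counted, and it was not above the median of brightness. The cause was not tested for any change below.

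For replication genes at day 3, none was called, but 1 (Orc1) was with a 1.5-fold limit, with the limit on the mean alone or with only the closest-reading spot kept, and 0 to 3 with an array left out (3 without replicate 1). Their median of 0.019 became -0.23 with that spot alone, -0.097 over genes on all 4 arrays or over spots measured on both arrays, a choice made after seeing the data, and 0.14 above the median of brightness. It was 0.037 to 0.15 with an array left out. Mitosis genes called at day 3 were 1 to 3 with an array left out (1 without replicate 1, 3 without replicate 2), and the median ran from -0.091 to 0.16.

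At day 10, the count of replication genes called, 1, fell to 0 with a common spread, a 4-fold limit, the spot of smallest array difference or the brightness trend removed. It rose to 2 with the limit on the mean alone and ran from 1 to 3 with an array left out (3 without replicate 2). The median of 0.065 became 0.0097 with the median of a gene's spots, -0.098 with the spot of smallest difference and 0.17 above the median of brightness, and -0.20 to -0.16 with an array left out. Mitosis genes called, 2, were 0 with a 4-fold limit, 1 (Cenpf) with the spot of smallest difference, above the median of brightness or with spots measured on both arrays, and 5 without either array. Their median ran from -0.060 to 0.49.

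Between the days, replication genes called, 0, ran to 2 with an array left out, and the median from -0.11 to 0.20 (0.15 above the median of brightness). Mitosis genes called, 1, were 2 with a 1.5-fold limit, 0 with a 4-fold limit or above the median of brightness, 3 with the mean alone, and 2 to 5 with an array left out, 5 without day 3 replicate 2. With the spot of smallest difference, or spots measured on all 4 arrays, the gene called was Cenpf and not Cdk1. Their median of -0.13 became 0.099 with the spot of smallest difference and -0.23 above the median of brightness, and ran from -0.064 to 0.19 with an array left out. Of all genes, leaving out an array raised the share called to between 10.0% and 20.4%.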
